A study of Homo sapiens with 6 samples.

Results

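Proteases that degrade the amyloid-β peptide were described gene by gene in human forebrain organoids given the peptide itself. The 9 genes, taken by symbol from the 18056 genes of the authors' table, were MME, ECE1, ECE2, ACE, IDE, PITRM1, THOP1, MMP2 and PLAT, and all 9 were listed. Organoids of the established induced pluripotent stem cell line DYR0100, of wild-type genotype and grown by a dorsal forebrain protocol, received vehicle (3 libraries) or 5 µM Aβ42, a form of the peptide prone to aggregate, and were cultured for 6 days. Both arms share the line and the batch, and polyadenylated RNA was sequenced from 3 biological replicates per arm. The age of the organoids, the number pooled per library and the form in which the peptide was given are not stated in the sources used here.

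Amyloid-β is released from its precursor protein by secretases and leaves the brain in part through proteolysis. Neprilysin (MME), the endothelin-converting enzymes (ECE1, ECE2) and angiotensin-converting enzyme (ACE) are membrane zinc peptidases that cut peptides outside the cell or in vesicles. Insulin-degrading enzyme (IDE) and the mitochondrial presequence protease (PITRM1) enclose short peptides in an inner chamber, while thimet oligopeptidase (THOP1) is a cytosolic peptidase, MMP2 a secreted matrix metalloprotease, and PLAT the tissue-type plasminogen activator, which releases plasmin.

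In these organoids PITRM1 was the most abundant of the 9 transcripts and MME was close to absent. ECE1 was 1.26-fold higher with Aβ42 (95% interval 1.1 to 1.44), with 3 of 3 exposed libraries above every vehicle library, and had the smallest p-value of the 8 proteases tested. It did not pass an adjusted p-value of 0.05 over all genes (0.0807 in edgeR's quasi-likelihood test) and passed, at 0.0077, when the replicate number was fitted as a block. ECE2, PLAT and MMP2 had lower means with Aβ42 and IDE, PITRM1, THOP1 and ACE differed little, and none of these passed in either fit.

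Sequences upstream of the starts are shown for the gene whose groups separated (ECE1), the gene that was nearly silent (MME) and the most abundant gene (PITRM1). They come from RefSeq promoter windows (GRCh38.p14), which were held for 6 of the 9 genes. Of the 250 bases before a start, the longest stretch outside every GENCODE 29 exon was kept. ECE1 and MME each had 4 listed starts and PITRM1 had 3. An MME start whose window lay wholly in exons was left out, so outermost and inner refer to the MME starts kept. The starts of ECE1 are known to give isoforms that differ at the amino end and in cellular location, which a gene-level count cannot separate. Capitals mark GGGCGG (the GC box) and ACGTG (a form of the core of the hypoxia response element), each on either strand. Other forms of that core were not searched. Both motifs can share an end base, and neighbouring GC boxes can overlap.
ECE1, outermost start, chr1:21345573-21345754, minus strand, upstream of the gene: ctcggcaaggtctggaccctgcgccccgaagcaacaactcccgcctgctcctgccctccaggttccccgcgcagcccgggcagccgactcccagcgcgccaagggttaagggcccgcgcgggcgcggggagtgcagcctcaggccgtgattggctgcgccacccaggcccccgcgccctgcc
ECE1, inner start, chr1:21290490-21290713, minus strand, ECE1 intron: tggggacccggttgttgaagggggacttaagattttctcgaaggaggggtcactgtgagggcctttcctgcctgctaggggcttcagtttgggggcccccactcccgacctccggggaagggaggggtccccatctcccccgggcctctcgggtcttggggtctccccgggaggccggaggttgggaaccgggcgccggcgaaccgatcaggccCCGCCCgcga
MME, outermost RefSeq start, chr3:155079422-155079646, plus strand, intron of longer MME transcripts in GENCODE 29: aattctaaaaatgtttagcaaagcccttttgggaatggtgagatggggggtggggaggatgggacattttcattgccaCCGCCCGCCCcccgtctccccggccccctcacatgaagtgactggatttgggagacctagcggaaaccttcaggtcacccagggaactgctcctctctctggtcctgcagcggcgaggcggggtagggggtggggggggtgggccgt
PITRM1, outermost start, chr10:3172842-3173091, minus strand, upstream of the gene: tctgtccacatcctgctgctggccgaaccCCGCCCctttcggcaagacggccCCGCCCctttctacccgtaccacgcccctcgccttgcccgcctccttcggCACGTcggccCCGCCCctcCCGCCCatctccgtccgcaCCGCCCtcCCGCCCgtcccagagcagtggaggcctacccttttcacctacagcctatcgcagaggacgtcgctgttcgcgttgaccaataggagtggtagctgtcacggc

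PITRM1 held 6 GC boxes and 1 ACGTG in its 250 bases, with 10 CpG dinucleotides per 100 bases. The ECE1 stretches held 0 and 1 GC boxes with 10.4 and 7.1 CpG per 100 bases, and MME held 2 GC boxes with 4 CpG per 100 bases. The median of all 35116 windows of 250 bases was 4.4 CpG per 100 bases, so the PITRM1 and ECE1 stretches shown lay above it and that of MME close to it. Starts of 1 gene differed. The other ECE1 starts had 15.1 CpG per 100 bases with 3 GC boxes, and 1.9 with 0, and inner MME starts had 10.1 and 10.5. ACE, a low transcript, held 10.8 at its outer start. The GC box was in 42.6% of all windows and ACGTG in 18.5%, and the shorter stretches shown had fewer places for a match. A match describes the letters only.

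Levels of different genes are compared as TPM, which scale for transcript length and set each library to a common total. The length implied by the authors' counts and TPM was not fixed between libraries. For ACE it ran from 1.17 to 1.36 relative to the median gene. Over the 6 libraries PITRM1 lay at 62.09 to 66.69 TPM, and its mean stood at percentile 83.1 of the 18056 genes. PLAT followed at 16.15 to 27.36 TPM, IDE at 15.36 to 18.41 and ECE1 at 14.56 to 20.37. These 3 sat at percentiles 59.5, 52.6 and 52.2, and their ranges overlapped over the 6 libraries and within the exposed group. Within vehicle they did not overlap (PLAT at 22.26 to 27.36, IDE at 17.04 to 18.41 and ECE1 at 14.56 to 15.36 TPM). PLAT exceeded IDE in 6 of 6 libraries, and IDE exceeded ECE1 in 4 of 6. THOP1 was below them at 10.01 to 13.64 TPM, with no overlap with ECE1. ECE2 lay at 2.17 to 4.34 TPM, MMP2 at 0.92 to 2.97 and ACE at 0.67 to 1.32. ECE2 exceeded MMP2 in 6 of 6 libraries, with no overlap within either group. MMP2 and ACE overlapped within both groups, and MME stood apart at 0 to 0.11 TPM.

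The 9 levels summed to 142.4 ± 4.70 TPM in vehicle and 135.8 ± 6.58 TPM with Aβ42 (mean ± SD, n = 3 each). By library, in order of replicate number, the vehicle sums came to 138.1, 147.4 and 141.8 TPM and the Aβ42 sums to 131.1, 143.3 and 133 TPM. The groups overlapped through Aβ42 replicate 2. PITRM1, the mitochondrial enzyme, made up 44.5% to 49.4% of the sum in every library. The ECE1 share stood at 11.1%, 10.1% and 10.3% in the vehicle libraries and at 15.5%, 11.4% and 13.7% in the exposed libraries, so that in Aβ42 replicates 1 and 3 it exceeded the share of IDE (11.7% and 12.1%).

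**Figure D1:**
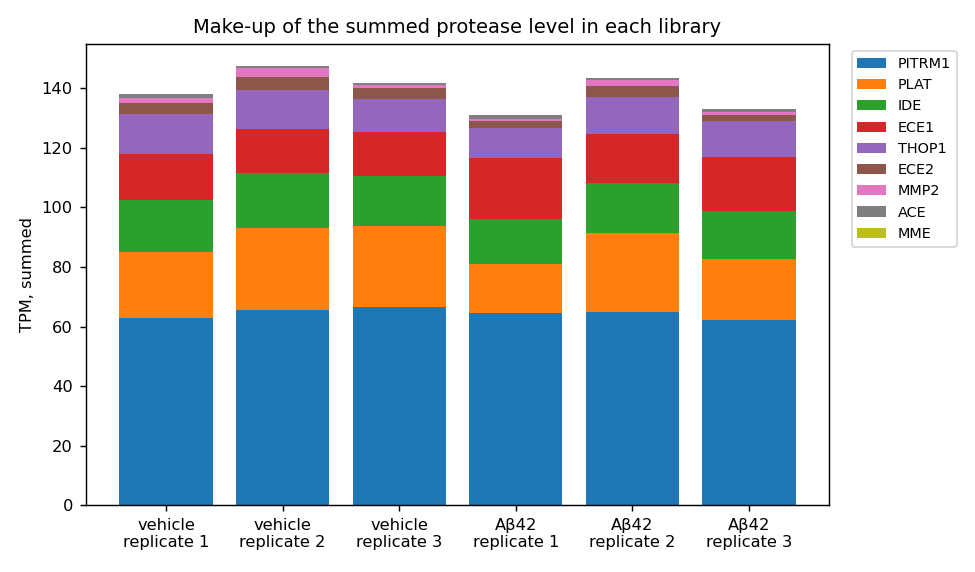
Stacked bars give the TPM of the 9 proteases summed in each of the 6 libraries, with 1 colour per gene. PITRM1 fills 44.5% to 49.4% of each bar, and MME, at 0 to 0.11 TPM, is too small to see.

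The remaining values are CPM, read counts scaled by TMM to a common library size, which compare a gene with itself between libraries. They are listed in order of replicate number. Libraries held 16465390 to 16742958 estimated reads, and the counts of the 9 genes were whole numbers in each. The labels give the cell type as iPSC. Pluripotency markers were low (POU5F1 at 1.71 to 3.66 TPM, TDGF1 at 0 in all libraries), and the 7 dorsal forebrain markers were each above 1 TPM and summed to 916.9 to 1053 TPM. Of 13842 genes tested, 0 passed an adjusted p-value of 0.05 (edgeR's quasi-likelihood test), 3302 had an unadjusted p-value under 0.05, and 1962 passed with the replicate block. In bulk RNA, fewer cells of a type and less RNA per cell cannot be told apart.

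Of the 9 proteases, 8 had enough reads to test, and 0 passed, as for all genes tested (0%). With an unadjusted p-value under 0.05 there was 1 (ECE1), or 12.5% of 8, against 23.9% of all genes. Groups did not overlap for 1 (ECE1), against 27% of all genes, and 1 passed with the replicate block, against 14.2%. Each share lay at or below that of all genes, so these counts single out nothing about the proteases as a set. Their median log2 fold change (Aβ42 over vehicle) was -0.09, with 2 above and 6 below 0, and that of all genes was 0.0032.

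**Figure D2:**
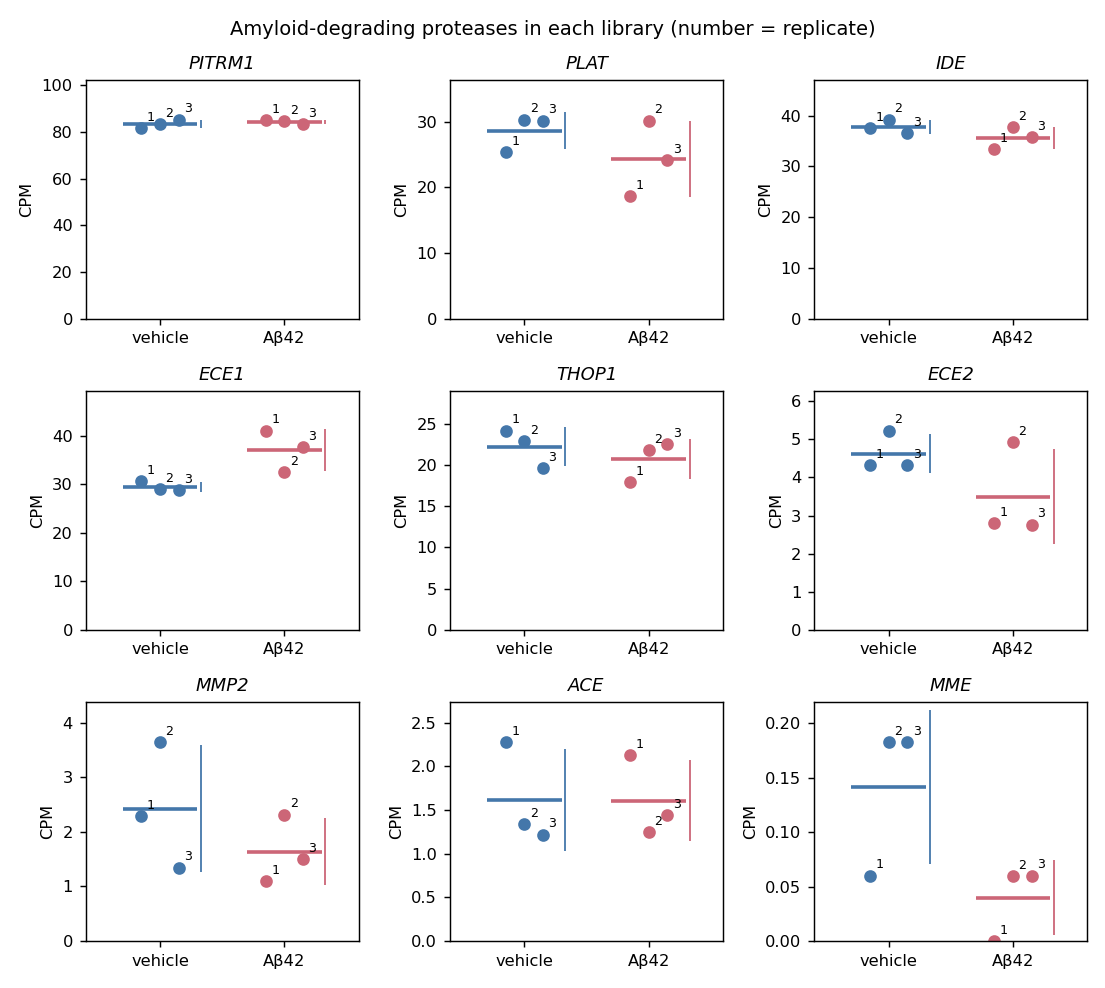
Each panel plots the CPM of 1 protease in the 3 vehicle (blue) and 3 Aβ42 (red) libraries, numbered by replicate, on an axis from 0. Horizontal bars are group means and vertical bars the SD, and ECE1 is the gene whose groups do not overlap among those tested.

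Among the membrane zinc peptidases, neprilysin is the enzyme best known for clearing amyloid-β in brain. MME had 1, 3 and 3 reads in the vehicle libraries and 0, 1 and 1 reads in the exposed libraries. All libraries were at or under 3 counts, the limit that a count of 0 allows, which equals 0.179 to 0.182 CPM. No fold change is given, and a difference in MME was not detectable at this depth.

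ECE1, which matures endothelins and cuts amyloid-β inside vesicles and at the surface, measured 30.7, 28.9 and 28.7 CPM in the vehicle libraries and 41, 32.5 and 37.6 CPM in the Aβ42 libraries. All 3 exposed libraries lay above all 3 vehicle libraries, with Aβ42 replicate 2 nearest to them. Means were 29.5 ± 1.08 and 37.1 ± 4.26 CPM (SD, n = 3 libraries each). The log2 fold change came to 0.33 ± 0.09 (SE, unadjusted p-value 0.00289, adjusted 0.0807 in edgeR). The value stayed positive, between 0.25 and 0.42, in the 15 alternative fits, and the adjusted p-value ran from 0.00187 without Aβ42 replicate 2 to 0.302 without Aβ42 replicate 3. It passed in 5 of them, among these DESeq2 (0.041) and the fit without replicate 2 in both groups (0.00557). Antisense exons overlapped 3.27% of ECE1 exon bases in GENCODE 29, and whether counting used strand is not given in the sources used here.

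ECE2, an acidic-pH relative of ECE1 found in neurons, measured 4.33, 5.23 and 4.33 CPM in the vehicle libraries and 2.80, 4.93 and 2.76 CPM in the Aβ42 libraries. Aβ42 replicates 1 and 3 were below every vehicle library, while replicate 2 was inside the vehicle range. The log2 fold change was -0.40 ± 0.23 (95% interval -0.92 to 0.11, adjusted p-value 0.315 in edgeR). Without Aβ42 replicate 2 it was -0.73 and passed (0.0169), and without replicate 2 in both groups it was -0.64 (0.0466). With the block it was -0.42 and did not pass (0.123). ECE2 had 46 to 86 reads per library, for which counting error alone is 12.2%, and a readthrough gene, EEF1AKMT4-ECE2, shares 62.7% of its exon bases, so its level is uncertain.

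ACE, which makes angiotensin II and cuts amyloid-β at its amino end, measured 2.28, 1.34 and 1.22 CPM in the vehicle libraries and 2.13, 1.25 and 1.44 CPM in the Aβ42 libraries. Replicate 1 was the highest library in both groups, and the groups overlapped. With 20 to 38 reads per library the 95% interval of its fold change ran from 0.612 to 1.61 (adjusted p-value 0.987 in edgeR), and its sign differed between fits. Another protein-coding gene shares 23.9% of the exon bases of ACE on the same strand.

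**Figure D3:**
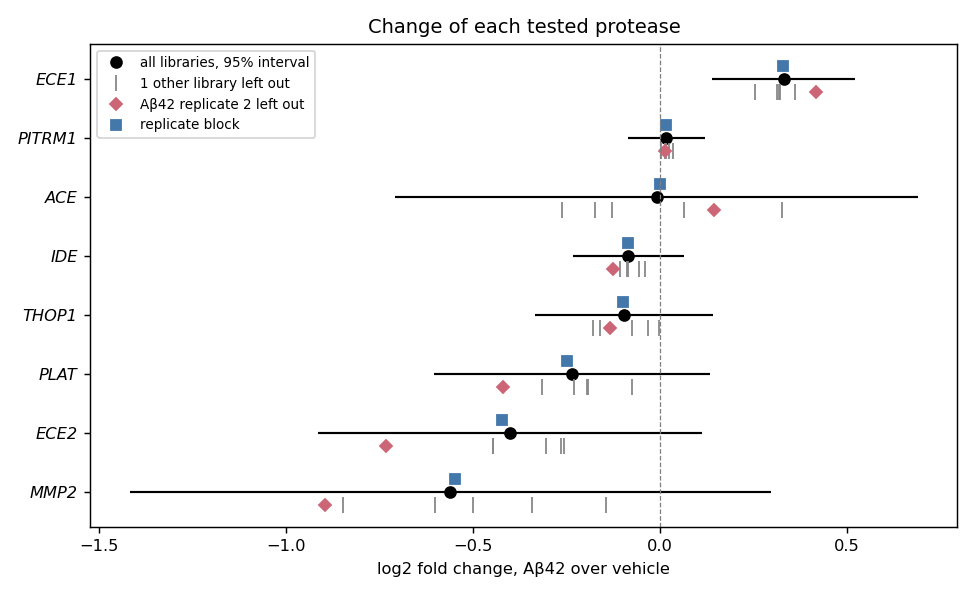
Black points are log2 fold changes of the 8 tested proteases with all libraries (Aβ42 over vehicle) and lines their 95% intervals. Grey ticks and red diamonds leave out 1 library and blue squares add the replicate block. ECE1 stays at 0.25 to 0.42 throughout, and leaving out Aβ42 replicate 2 moves ECE2 to -0.73 and PLAT to -0.42.

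The chamber peptidases were the most even. IDE, which clears insulin and free amyloid-β monomers in the cytosol and outside the cell, measured 37.5, 39.2 and 36.6 CPM in the vehicle libraries and 33.5, 37.7 and 35.7 CPM in the Aβ42 libraries. The groups overlapped, and Aβ42 replicate 1 was the lowest library. Its fold change was 0.943 (95% interval 0.85 to 1.05; adjusted p-value 0.457 in edgeR).

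PITRM1, which clears presequences and amyloid-β in the mitochondrial matrix, measured 81.6, 83.3 and 85.3 CPM in the vehicle libraries and 85, 84.7 and 83.5 CPM in the Aβ42 libraries. All 6 libraries fell in a span of under 4 CPM, and the exposed values lay inside the vehicle range. The fold change was 1.01 with a 95% interval of 0.941 to 1.09 (adjusted p-value 0.852), the narrowest of the 8 tested. Exons of an antisense gene, PITRM1-AS1, cover 19.8% of its exon bases.

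THOP1, a cytosolic enzyme that degrades short peptides, measured 24.1, 22.9 and 19.6 CPM in the vehicle libraries and 17.9, 21.8 and 22.5 CPM in the Aβ42 libraries. The groups overlapped, and replicate 1 was the highest vehicle library and the lowest exposed library. The log2 fold change was -0.10 ± 0.11 (adjusted p-value 0.6 in edgeR) and came to -0.0024 without Aβ42 replicate 1.

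Of the secreted proteases, PLAT, which cuts plasminogen to plasmin and also acts in synaptic plasticity, measured 25.4, 30.3 and 30.2 CPM in the vehicle libraries and 18.6, 30.2 and 24.1 CPM in the Aβ42 libraries. Aβ42 replicates 1 and 3 lay below all vehicle libraries, and Aβ42 replicate 2 lay among them. The log2 fold change was -0.24 ± 0.16 (adjusted p-value 0.4 in edgeR, 0.0655 with the replicate block). It was -0.42 without Aβ42 replicate 2, where it passed (0.0264), -0.38 without replicate 2 in both groups (0.0625), and -0.08 without Aβ42 replicate 1 (0.772).

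MMP2, gelatinase A, measured 2.28, 3.65 and 1.34 CPM in the vehicle libraries and 1.1, 2.32 and 1.5 CPM in the Aβ42 libraries. Replicate 2 was the highest library in both groups, and the groups overlapped. The log2 fold change was -0.56 ± 0.38 (95% interval -1.42 to 0.30, adjusted p-value 0.395 in edgeR), -0.14 without vehicle replicate 2 and -0.90 without Aβ42 replicate 2, and it passed in none of the 15 alternatives. MMP2 had 18 to 60 reads per library, for which counting error alone is 17.2%.

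Summed TPM of intermediate progenitor markers separated the groups, as ECE1 did, and that of neuronal markers did so narrowly. The 5 intermediate progenitor markers summed to 202.3, 222.9 and 201.1 TPM in the vehicle libraries and 149.2, 158.5 and 133.5 TPM in the Aβ42 libraries. Of these 5, 4 had an unadjusted p-value under 0.05, all lower, or 80% against 23.9% of all genes, and 0 passed after adjustment in edgeR (3 with the block). The 8 neuronal markers summed to 4636 to 4909 TPM in vehicle and 4370 to 4586 TPM with Aβ42, with 1 higher and 3 lower at that unadjusted threshold. In the CPM fit, 4 of these 8 had a log2 fold change above 0 and 4 below, with a median of 0.0075. On the TPM scale the median of all genes was itself below 0 (-0.0401 with a pseudocount of 1). The neuronal sums therefore cannot show less neuronal RNA. The 8 radial glia markers also had 1 higher and 3 lower at that threshold. Their sums overlapped, at 7748 to 8078 TPM in vehicle and 8001 to 8350 TPM with Aβ42. The part of progenitors and neurons in the ECE1 difference was not tested. The libraries numbered 2 had the highest summed markers of choroid plexus and of mesenchymal and mural cells in each group. The same held for the astrocyte, intermediate progenitor and endothelial sums, and not for those of radial glia, neurons and dorsal forebrain. The 6 astrocyte markers summed to 194.53, 212.43 and 187.81 TPM in vehicle and 175.91, 188.65 and 162.51 TPM with Aβ42. The 6 choroid plexus markers, led by TTR, summed to 3347, 7570 and 3966 TPM in the vehicle libraries and 3642, 6662 and 2838 TPM in the Aβ42 libraries, and all 6 were at 1 TPM or more in every library. The 8 mesenchymal and mural markers summed to 22.65, 35.45 and 20.16 TPM in vehicle and 16.1, 20.81 and 16.78 TPM with Aβ42. Of these 8, 3 to 5 reached 1 TPM in a library, and COL1A2 and COL3A1 were at 0 in Aβ42 replicate 1. The higher sums in replicate 2 came mainly from DCN. It measured 9.96, 22.29 and 8.67 TPM in vehicle and 4.39, 8.82 and 4.3 TPM with Aβ42. PDGFRA and RGS5 were highest in vehicle replicate 1, RGS5 was lowest in Aβ42 replicate 2, and PDGFRB was highest in Aβ42 replicate 3. MMP2, ECE2, PLAT and IDE were likewise highest in replicate 2 of both groups, PLAT in vehicle by a small margin. Without replicate 2 in both groups their log2 fold changes were -0.48, -0.64, -0.38 and -0.10. The part of any of these cell types in the values was not tested. The 6 endothelial markers summed to 2.53 to 7.88 TPM, nearly all of it CLDN5. The 7 microglial markers summed to 0.26 to 1.21 TPM, with C1QA, TREM2 and TYROBP at 0 throughout, so microglia, a main source of amyloid-degrading enzymes in brain, left almost no reads.

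**Figure D4:**
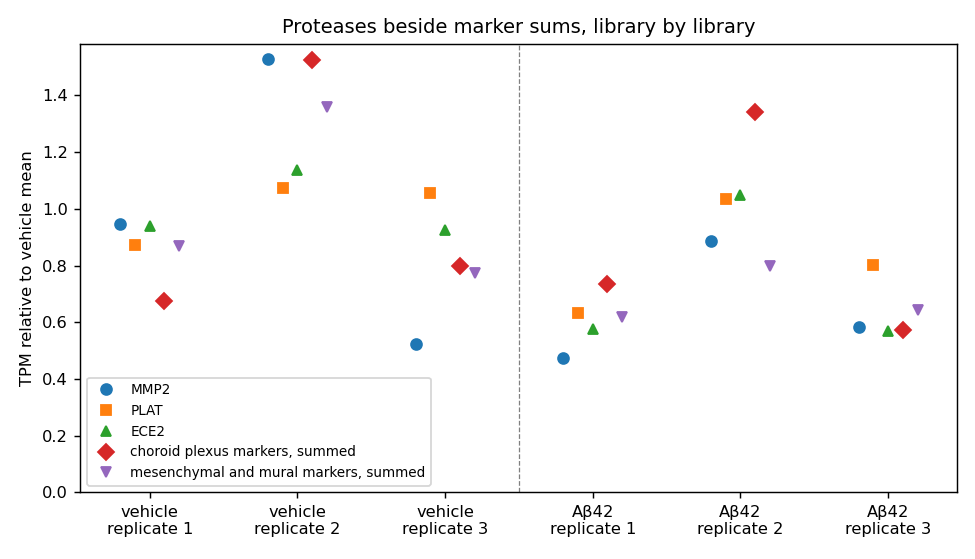
MMP2, PLAT and ECE2 are plotted in each library beside the summed choroid plexus and mesenchymal and mural markers, each as TPM relative to its vehicle mean. The choroid plexus sum is highest in vehicle replicate 2 (7570 TPM) and Aβ42 replicate 2 (6662 TPM), the libraries in which MMP2 is highest in its group. Astrocyte, intermediate progenitor and endothelial sums, not plotted, were also highest in these libraries.

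In 5 of the 8 tested proteases (ECE1, ECE2, IDE, MMP2 and PLAT) Aβ42 replicate 2 was the exposed library nearest to the vehicle mean. Over all tested genes this was so in 57.9%, against 62.5% of the proteases. In THOP1, PITRM1 and ACE it was Aβ42 replicate 3.

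Genes that followed the 3 proteases with the smallest p-values most closely over the 6 libraries (Pearson's r of log2 CPM across genes at 10 CPM or more, given as a description) were SYN3 (0.998) and OSBPL7 (0.997) for ECE1, TBC1D19 (0.997) and EZR (0.997) for ECE2, and CSMD3 (0.991) and DDX11 (0.99) for MMP2. SYN3, a synapsin of synaptic vesicles, averaged 50.5 ± 1.21 CPM with vehicle and 65.6 ± 8.33 CPM with Aβ42, with an adjusted p-value of 0.0734 in edgeR and 0.00191 with the block. These are the highest of all coefficients computed over 6 libraries, so their size reflects that choice.

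Other genes of the same pathways were read from the same fit in 7 lists. Of 108 genes listed, 102 were in the table and 75 had enough reads, and 0 passed without the block. There were 20 with an unadjusted p-value under 0.05 (13 higher, 7 lower) and 15 that passed with the block (8 higher, 7 lower). That is 26.7% and 20% of 75, beside 23.9% and 14.2% of all genes.

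**Figure D5:**
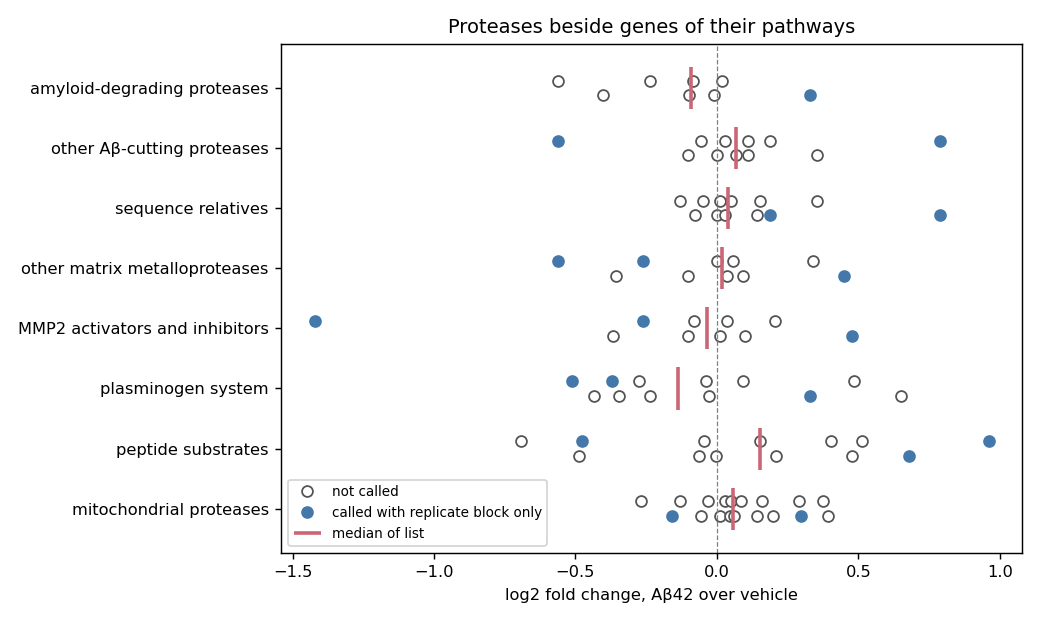
Each circle is the log2 fold change of 1 tested gene (Aβ42 over vehicle) in the proteases (top row) and the 7 pathway lists, and red bars are list medians. Filled circles passed with the replicate block and none passed without it. ECE1 is the single filled circle in the top row.

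Among 11 tested proteases otherwise linked to amyloid-β, the median log2 fold change was 0.07. ECEL1, a neuronal relative of the endothelin-converting enzymes, averaged 2.34 ± 0.57 CPM with vehicle and 4.05 ± 0.96 CPM with Aβ42 (0.79 ± 0.25, adjusted p-value 0.109 in edgeR). Its groups did not overlap, and with the block it passed at 0.0118. MMP3, a stromelysin, averaged 28.0 ± 7.84 CPM with vehicle and 19.0 ± 1.49 CPM with Aβ42 (-0.56 ± 0.21, 0.166, and 0.0046 with the block), and its groups overlapped. The lysosomal cathepsins CTSB (0.07 ± 0.06) and CTSD (-0.00085 ± 0.07) and the β-secretase relative BACE2 (0.19 ± 0.13) passed in neither fit. The BACE2 value was larger on log2 TPM, at 0.42 and 0.47 with pseudocounts of 1 and 0.1, and did not pass there. MMEL1, the closest relative of neprilysin, had 12.6 to 24.2 estimated reads per library, not whole in any, and a log2 fold change of 0.35 ± 0.31.

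Of 12 tested members of the same peptidase families, 9 had a log2 fold change above 0 and 3 below, with a median of 0.04. NRDC, a relative of IDE (0.03 ± 0.04), and NLN, the mitochondrial and cytosolic relative of THOP1 (0.01 ± 0.06), had standard errors close to that of PITRM1 (0.05). UQCRC2, a respiratory complex subunit built on the same fold as IDE, averaged 160.1 ± 8.35 CPM with vehicle and 182.3 ± 11.6 CPM with Aβ42 (0.19 ± 0.06, adjusted p-value 0.11 in edgeR, 0.0203 with the block). Its groups did not overlap.

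In the mitochondrial compartment of PITRM1, 18 of 18 listed proteases were tested, with a median of 0.06. At an unadjusted p-value under 0.05, 6 were higher and 1 lower, or 38.9% against 23.9% of all genes, while 11.1% passed with the block, against 14.2%. YME1L1, an inner-membrane protease, averaged 204.6 ± 4.65 CPM with vehicle and 183.1 ± 7.42 CPM with Aβ42 (-0.16 ± 0.05, adjusted p-value 0.0979 in edgeR, 0.049 with the block). XPNPEP3, an aminopeptidase, averaged 18.5 ± 1.54 CPM with vehicle and 22.7 ± 2.12 CPM with Aβ42 (0.30 ± 0.10, 0.115 and 0.0276). Neither overlapped between groups, and the estimated counts of both were not whole in any library, so the counting may have split reads between genes.

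Around MMP2, 10 other matrix metalloproteases had a median of 0.02. MMP16, a membrane-type enzyme that activates MMP2, averaged 133.5 ± 9.14 CPM with vehicle and 111.4 ± 10.1 CPM with Aβ42 (-0.26 ± 0.07, adjusted p-value 0.0891 in edgeR, 0.021 with the block), with no overlap. MMP10, a second stromelysin, averaged 22.5 ± 3.66 CPM with vehicle and 30.8 ± 5.98 CPM with Aβ42 (0.45 ± 0.16, 0.143 and 0.00131), and its groups overlapped. MMP14, the main activator of MMP2, averaged 34.5 ± 4.37 CPM with vehicle and 32.2 ± 3.80 CPM with Aβ42 (-0.10 ± 0.11). The inhibitors TIMP1 (-0.08 ± 0.21), TIMP2 (0.10 ± 0.05) and TIMP3 (0.01 ± 0.13) passed in neither fit.

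The thrombospondins, matrix proteins that bind MMP2, had opposite signs. THBS2 averaged 19.0 ± 0.89 CPM with vehicle and 26.4 ± 2.51 CPM with Aβ42 (0.48 ± 0.09, adjusted p-value 0.0684 in edgeR, 0.0021 with the block). THBS1, named after its values were seen, measured 12.4, 25.4 and 14.1 CPM in the vehicle libraries and 3.23, 10.3 and 5.76 CPM in the Aβ42 libraries (-1.42 ± 0.50, 0.175 and 7.32e-06), highest in replicate 2 of both groups. Neither gene overlapped between groups, and the THBS1 counts were whole in 1 of 6 libraries.

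Around PLAT, the plasminogen system had 12 tested genes with a median of -0.14. Plasminogen itself (PLG, at most 9.8 estimated reads and 0.57 TPM in a library) and the second activator PLAU (at most 9 reads) were too low to test. SERPINE2, protease nexin 1, which inhibits PLAT and thrombin, averaged 45.8 ± 6.42 CPM with vehicle and 35.4 ± 2.69 CPM with Aβ42 (-0.37 ± 0.10, adjusted p-value 0.0868 in edgeR, 0.00259 with the block), and its groups did not overlap. SERPINI1, neuroserpin, the neuronal inhibitor of PLAT, measured 65.2, 52.0 and 63.3 CPM in the vehicle libraries and 89.5, 54.1 and 83.1 CPM in the Aβ42 libraries. It was high in the Aβ42 libraries where PLAT was low, with a log2 fold change of 0.33 ± 0.21 (adjusted p-value 0.382, 0.0111 with the block) and overlapping groups. NETO2, also on the list, is an auxiliary subunit of kainate receptors with no established part in plasminogen activation. It averaged 296.8 ± 27.2 CPM with vehicle and 208.3 ± 31.2 CPM with Aβ42 (-0.51 ± 0.11, 0.0779 and 2.82e-05), and its estimated counts were not whole in any library.

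Among 13 tested genes of peptides that these enzymes cut, the median was 0.15, and groups did not overlap for 0 of 13, against 27% of all genes. NTS, the precursor of neurotensin, a substrate of MME, ECE1 and THOP1, measured 21.3, 16.1 and 16 CPM in the vehicle libraries and 34.7, 19.5 and 31.4 CPM in the Aβ42 libraries (0.68 ± 0.23, adjusted p-value 0.155 in edgeR, 0.00209 with the block). Aβ42 replicates 1 and 3 were above all vehicle libraries. BDNF, whose precursor plasmin cuts, averaged 2.99 ± 0.41 CPM with vehicle and 4.27 ± 0.88 CPM with Aβ42 (0.51 ± 0.21, 0.169 and 0.0643). SST, whose peptide somatostatin raises neprilysin activity, had at most 1 read in a library, and IGF2, cut by IDE, had 4 to 19 reads (0.48 ± 0.46).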

How the data were processed

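RNA sequencing of 6 libraries (3 vehicle, 3 Aβ42) was analysed from 1 table. Per the file headers, each gene has a read count and a TPM in every library. The deposited counts were whole in 86.9% to 87.5% of values, so they were treated as estimated counts and rounded. The deposited TPM values were used as the authors scaled them. The submitters' processing notes name FastQC, STAR 2.7.11b, featureCounts 2.0.6 and GRCh38, with no role. The annotation and the strand setting are not given in the sources used here.

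Genes kept by filterByExpr (13842) were scaled by TMM and compared with edgeR 4.0.16 (quasi-likelihood, robust, no block, two-sided, R 4.3.3), with Benjamini-Hochberg adjustment over all genes and a threshold of 0.05. SE was taken from the fold change and the F statistic, and 95% intervals use the fit's degrees of freedom. The fit was tested on simulated data. These were drawn independently for each library, with no replicate effect and no library unlike its group, so they do not cover those features. Alternatives used DESeq2 1.42.0, limma 3.58.1 and a replicate block, other filters and scalings, log2(TPM + pseudocount) with 1 or 0.1, and fewer libraries.

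Deviations from the group mean correlated between same-numbered libraries (0.181, 0.388 and 0.129 over 12186 genes with a mean of 50 counts or more). Correlations between unlike numbers were not computed, so these values cannot show that numbers pair the libraries. No pairing is stated in the labels, so the fit with the replicate block rests on an assumption. No 2 libraries were duplicates (chi-square of 3.16 to 21.1 per gene). The smallest value was between vehicle replicate 1 and Aβ42 replicate 2. Aβ42 replicate 2 stood at 3.16, 7.70 and 4.58 from vehicle replicates 1 to 3. From Aβ42 replicates 1 and 3, which stood at 3.62 from each other, it was at 9.40 and 8.48. The labels name biological replicates without saying how cultures were separated. Read numbers carry no molecular identifiers, so limits on low counts cover counting error only.

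The proteases and lists were chosen with earlier results of these data known. Named were all 9 proteases, 17 pathway genes whatever their result, the 2 genes of each list with the smallest p-value, and the 2 genes most alike to each of 3 proteases. RefSeq (GRCh38.p14) promoter windows were matched by symbol, and exon overlaps came from GENCODE 29.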

Additional observations from a re-analysis of the deposited data

How the results depend on the processing

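Of the proteases, 0 passed in the fit without a block, under RLE scaling, without a filter, at a mean of 10 counts or on either TPM scale (1 unadjusted p-value under 0.05 in each). DESeq2, quality weights and the replicate block each called 1, ECE1, and the fit without replicate 2 in both groups, chosen after the data were seen, called 2. Leaving out 1 library gave 0 to 3, with calls only without Aβ42 replicate 2 (ECE1, ECE2 and PLAT). DESeq2 gave no adjusted p-value for ECE2, MMP2 and ACE.

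Over all genes, 0 calls (3302 unadjusted) became 360 without a filter, 814 with DESeq2, 2543 with quality weights, 1962 with the replicate block and 2316 without replicate 2 in both groups, and 0 to 3224 when 1 library was left out. Pathway genes went from 0 (20 unadjusted) to 1, 7, 10, 15 and 12 under these settings in the same order, and to 0 to 14 with 1 library left out. The cause was not tested.

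ECE1, ECE2, IDE, THOP1, MMP2 and PLAT kept their sign in all 15 alternatives. Signs near 0 turned, as log2 fold changes. With quality weights ACE was 0.10, CTSD 0.028 and TIMP3 -0.043. Pseudocounts of 1 and 0.1 on the TPM scale, where the median of all genes is -0.0401 and -0.0434, gave 0.032 and 0.060 for ACE, -0.026 and -0.026 for PITRM1, -0.036 and -0.037 for NLN, -0.016 and -0.016 for NRDC, and -0.034 and -0.035 for TIMP3. CTSD was 0.0016 with the replicate block. Without replicate 2 in both groups ACE was 0.024, CTSD 0.063 and TIMP3 -0.0074. Fits that each left out 1 library ran from -0.26 to 0.33 for ACE, -0.028 to 0.057 for NLN, -0.067 to 0.073 for CTSD, -0.19 to 0.0063 for MMP14, -0.25 to 0.11 for TIMP1 and -0.12 to 0.13 for TIMP3. The cause was not tested.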

Other observations

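The balance of the endothelin-converting enzymes differed by library. ECE1 had 7.10, 5.54 and 6.63 times the reads of ECE2 in vehicle replicates 1 to 3 and 14.6, 6.60 and 13.6 times with Aβ42. The groups overlapped through Aβ42 replicate 2, and between libraries of the same number the log2 ratio was higher with Aβ42 by 1.04, 0.254 and 1.04. Ignoring the numbers, the exact permutation p-value was 0.3 (two-sided, where 3 libraries against 3 cannot go below 0.1). This ratio was chosen after the values were seen.

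The stromelysins MMP3 and MMP10 took opposite directions. MMP10 made up 40%, 37.5% and 58.3% of the reads of the pair in vehicle replicates 1 to 3 and 57.2%, 59.1% and 68.2% with Aβ42, so vehicle replicate 3 lay inside the exposed range. Counts of both were whole in every library.

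Reads per TPM, divided by those of the median gene in the same library, follow the relative transcript length that the authors' counting assigned. This ratio varied between libraries by 0.105% for PITRM1, 0.238% for PLAT and 0.309% for ECE1 (coefficient of variation, against a median of 0.606% over 11234 genes). It varied by 6.08% for ACE and 4.77% for MMP2, the tested proteases with the fewest reads. For ACE it stood at 1.32, 1.33 and 1.36 in vehicle and 1.17, 1.36 and 1.22 with Aβ42.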
